A study of Mus musculus with 21 samples.

Results

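Toll-like receptors, their co-receptor *Cd14* and their adaptor *Myd88* were examined in the podocyte fraction of young and middle-aged mice. The 10 genes were found by symbol among the 27179 genes that each library listed by Entrez Gene number, and each symbol matched 1 number. They were the cell-surface receptors *Tlr1*, *Tlr2*, *Tlr4* and *Tlr6*, the endosomal receptors *Tlr3*, *Tlr7*, *Tlr8* and *Tlr9*, the co-receptor *Cd14* and the adaptor *Myd88*. All 10 passed the filter on low counts and were among the 16377 genes tested.

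Bulk mRNA-seq was performed on 21 podocyte fractions of wildtype male C57BL/6J mice. Kidney cortex was digested and the cells that bound antibodies to nephrin, a protein of the podocyte slit diaphragm, were retained on magnetic columns. By the labels the young group held 6 libraries of untreated mice aged 4 months, a number that differs from the count of such mice in the methods. The middle-aged groups were treated from 18 months of age for 6 weeks, to 19.5 months, and held 7 libraries of mice given saline and 8 of mice given 10 mg/kg MCC950, an inhibitor of the NLRP3 inflammasome (NLRP3i), in saline by intraperitoneal injection. The young mice received no injection, so age and injection could not be told apart in the comparisons with them. The comparison of saline with young mice addresses middle age, that of MCC950 with saline addresses NLRP3 inhibition, and that of MCC950 with young mice shows what remained different from young mice under the inhibitor.

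Toll-like receptors are membrane sensors of microbial products and of molecules released from damaged cells. *Tlr1* and *Tlr6* each pair with *Tlr2* to bind lipopeptides, *Tlr4* binds lipopolysaccharide with the help of *Cd14*, and the receptors of the endosome bind nucleic acids. All of them except *Tlr3* signal through *Myd88* to NF-κB, which drives cytokine genes and also primes transcription of *Nlrp3* and *Il1b*, and in the kidney they are found on resident and infiltrating myeloid cells as well as on some epithelial cells.

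*Tlr1* and *Tlr6* are neighbours on chromosome 5 (*Tlr1* at chr5:64924679-64933563 and *Tlr6* at chr5:64952031-64960097, minus strand, GRCm38). They also share sequence. Of the 3332 stretches of 50 bases in annotated *Tlr1* transcripts, 454 were also found in *Tlr6*, so that reads from these stretches could have been assigned to either gene or dropped. No such stretch of *Tlr2*, *Tlr7*, *Tlr8*, *Tlr9* or *Cd14* occurred in a transcript of another gene. Exons of *Myd88* (chr9:119335934-119341411, minus strand) overlapped those of *Acaa1a* on the opposite strand over 290 of 2576 bases, and exons of *Tlr3* (chr8:45395665-45411080, minus strand) overlapped those of the unlisted gene *Gm45542* over 381 of 5207 bases. The strand setting of the counting is not given in the sources used here, so reads in these overlaps could not be told apart.

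RefSeq windows before an annotated start were matched for 7 of the 10 genes on GRCm38.p6, and for 6 of them bases outside annotated exons remained. The 4 longest such stretches, those of *Tlr1*, *Tlr6*, *Tlr8* and *Tlr9*, are shown to give the letters next to these receptor genes, 5′ to 3′ on the strand of the gene, with bases that match a searched motif in capitals. The *Tlr1* stretch, chr5:64933564-64933808, ends at the annotated exon and leaves off the last 5 bases before the RefSeq start. The *Tlr6* stretch, chr5:64959167-64959416, lies in an intron of the longer annotated gene. Those of *Tlr9*, chr9:106222348-106222597 on the plus strand, and of *Tlr8*, chrX:167264330-167264579 on the minus strand, touch no annotated exon.
Tlr1: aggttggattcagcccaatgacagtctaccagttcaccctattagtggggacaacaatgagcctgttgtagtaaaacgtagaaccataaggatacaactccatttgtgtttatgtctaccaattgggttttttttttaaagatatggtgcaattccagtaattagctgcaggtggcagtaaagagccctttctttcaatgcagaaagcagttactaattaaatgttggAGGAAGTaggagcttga
Tlr6: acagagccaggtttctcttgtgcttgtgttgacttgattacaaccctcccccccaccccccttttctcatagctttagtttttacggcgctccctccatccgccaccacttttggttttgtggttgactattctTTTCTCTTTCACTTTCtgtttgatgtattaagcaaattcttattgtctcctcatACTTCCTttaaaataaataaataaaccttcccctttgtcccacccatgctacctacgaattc
Tlr9: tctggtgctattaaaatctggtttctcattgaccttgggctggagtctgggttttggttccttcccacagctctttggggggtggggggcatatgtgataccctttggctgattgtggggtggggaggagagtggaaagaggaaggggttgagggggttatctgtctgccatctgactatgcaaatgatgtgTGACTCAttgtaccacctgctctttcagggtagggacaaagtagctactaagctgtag
Tlr8: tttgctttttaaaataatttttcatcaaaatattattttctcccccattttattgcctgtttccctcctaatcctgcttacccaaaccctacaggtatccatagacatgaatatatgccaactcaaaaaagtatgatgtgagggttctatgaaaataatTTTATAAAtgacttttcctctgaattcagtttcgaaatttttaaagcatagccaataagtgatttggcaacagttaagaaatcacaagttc
The motifs were searched on both strands and were AGGAAGT, bound by the myeloid factor PU.1, the interferon response element, TGANTCA of AP-1, the NF-κB element and the TATA box TATAAA. The *Tlr1* stretch held PU.1 letters from 22 bases before the start and the *Tlr6* stretch from 62 bases before it, which 7.69% of 32851 promoter windows of 250 bases hold. The *Tlr6* stretch held also 2 overlapping matches to the interferon response element (2.98% of windows), the nearer from 110 bases before the start. The *Tlr9* stretch held an AP-1 match from 58 bases before the start (6.75% of windows), read on both strands at the same place, and the *Tlr8* stretch held TATA letters on each strand from 91 and 89 bases before the start (12.4% of windows). The letters of the NF-κB element, present in 1.41% of windows, occurred in none of the 4 stretches. Of the stretches not shown, that of *Tlr2* (91 bases) held no match, that of *Myd88* (227 bases) held 1 match to the interferon response element and 2 to the TATA box, and that before another *Tlr6* start (201 bases) held 3 to the TATA box. These matches describe the letters only.

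The libraries held between 27375870 and 84876399 counts, of which genes of the mitochondrial genome took 49.9% to 80.4%. Every middle-aged library except MCC950 replicate 2 was deeper than every young library, so that depth and age could not be told apart (exact two-sided permutation test, saline versus young, p = 0.00117, the smallest that 7 libraries against 6 allow). MCC950 libraries held fewer total counts than saline libraries (35440472 to 58247271 against 45772937 to 84876399, exact two-sided permutation test, p = 0.0124). Their mitochondrial share was lower too (49.9% to 63.7% against 63.0% to 79.2%, exact two-sided permutation test, p = 0.000622). Counts outside mitochondrial genes showed no such difference (exact two-sided permutation test, MCC950 versus saline, p = 0.538). Treatment thus also went with differences between libraries. None of 13 podocyte markers was at 0 in any library, but their summed level was 717 to 1551 CPM (counts scaled to a common library size) in young, 284 to 544 CPM in saline and 368 to 597 CPM in MCC950 libraries, and 12 of 13 fell from young to saline mice. Markers of macrophages and monocytes were present in every library, at a sum of 486 to 2386 CPM in young, 1714 to 4128 CPM in saline and 970 to 4008 CPM in MCC950 libraries. RNA of other cells was therefore measured too, and in bulk samples fewer cells of a type and less RNA per cell cannot be told apart. Young replicate 1 stood apart before any test. It held the lowest level of all 10 genes among young libraries, the lowest macrophage sum (486 CPM) and the lowest mitochondrial share (51.5%, against 67.3% to 80.4% in the other young libraries). Calls of the 10 genes against young mice in the main fit are given below also for fits that leave it out. Calls of other genes, marker tests and fits with a covariate include it.

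*Cd14* was the most abundant of the 10 transcripts per kilobase of exon in each group. In saline libraries it reached 120 ± 31.4 CPM per kilobase (SD, n = 7), above *Tlr2* at 30.8 ± 7.89 CPM per kilobase. *Myd88* followed at 14.7 ± 1.36 CPM per kilobase, then *Tlr1* at 11.2 ± 2.42 CPM per kilobase. Next came *Tlr7* (6.73 ± 1.42 CPM per kilobase) and *Tlr9* (6.07 ± 1.80 CPM per kilobase), which did not differ beyond their spread. The least abundant were *Tlr8*, *Tlr3*, *Tlr4* and *Tlr6*, between 2.86 and 1.85 CPM per kilobase, where no neighbours in the order differed by more than the sum of their SDs. *Myd88* and *Tlr1* did not differ by this measure either. *Cd14* headed the order also in young and in MCC950 libraries (154 ± 57.5 CPM per kilobase, n = 8, in the latter), with *Tlr2* next and *Tlr6* last in both.

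**Figure D1:**
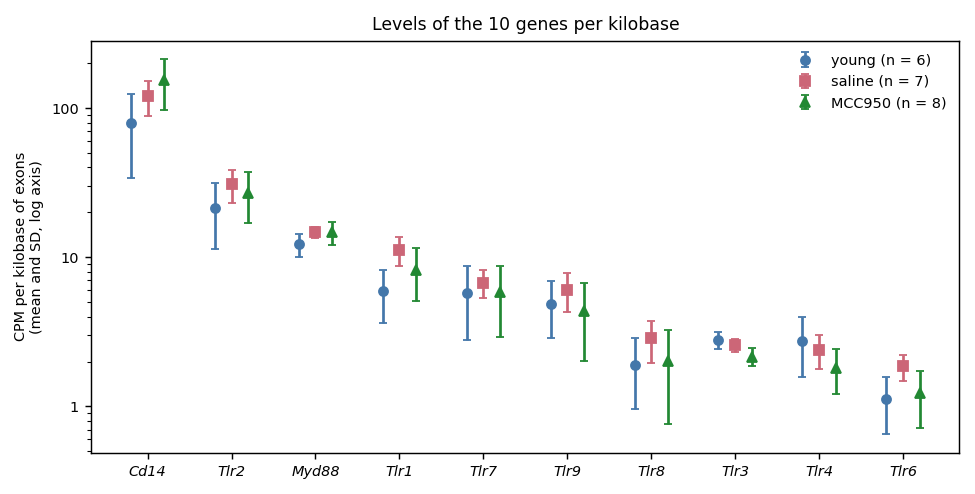
Mean level of each gene in CPM per kilobase of exons (log axis), with SD over libraries as bars, in young (circles, n = 6), middle-aged saline (squares, n = 7) and middle-aged MCC950 (triangles, n = 8) podocyte fractions. *Cd14* lies above *Tlr2* in each group, and *Tlr6* is the lowest, at 1.12 to 1.85 CPM per kilobase.

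With middle age, *Tlr1* was the only 1 of the 10 genes to rise past an adjusted p of 0.05 (edgeR's quasi-likelihood test, Benjamini-Hochberg over 16377 genes), and none fell. Of all genes tested, 12.2% rose and 12.4% fell in this comparison, so the share of the 10 genes called was not above the background. The median log2 fold change of the 10 genes was 0.42, beside 0.02 for all genes tested, and 8 of 10 fold changes were above 0. With MCC950, none of the 10 genes rose or fell by edgeR's quasi-likelihood test, where 11.9% of all genes rose and 4.86% fell. Here 0 genes were higher and 2 lower (*Tlr3* and *Tlr6*) at an unadjusted p under 0.05, and DESeq2 called 0 higher and 1 lower (*Tlr3*). The share of all genes was not computed for either of these rules, and the shares just given are for edgeR's adjusted p. The median log2 fold change was -0.33, beside 0.00 for all genes, and 9 of 10 were below 0, with *Cd14* the exception. Between MCC950 and young mice, *Cd14* rose and *Tlr3* fell, where 21.8% of all genes rose and 16.5% fell, and the median of the 10 genes was 0.11, beside 0.08 for all genes. The comparisons share libraries, the saline libraries in the first and second and the young libraries in the first and last, so that opposite medians in the first and second are not independent. The libraries of compared groups overlapped for each of the 10 genes in all 3 comparisons, while they did not overlap for 4.51% of all genes higher and 4.86% lower in saline than in young libraries, for 1.15% higher and 0.586% lower in MCC950 than in saline libraries, and for 3.28% higher and 4.66% lower in MCC950 than in young libraries. By the thresholds of the study's methods, which were a 2-fold change and 0.05 for the unadjusted p, none of the 10 genes was called in any comparison by edgeR. Of all genes, that rule called 4.04% higher and 2.92% lower with age, 1.68% higher and 1.03% lower with MCC950 against saline mice, and 4.05% higher and 4.32% lower with MCC950 against young mice.

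**Figure D2:**
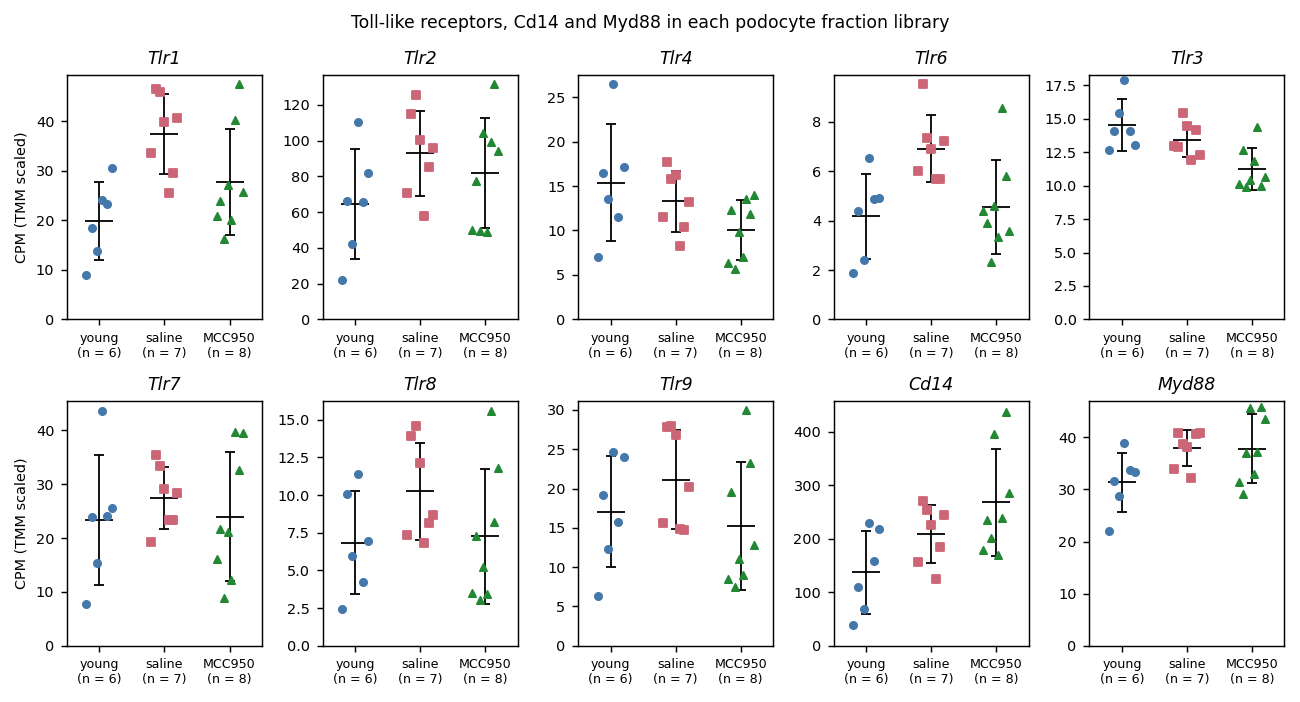
Level of each of the 10 genes in every library, in CPM scaled by TMM (linear axis from 0), for young (circles), saline (squares) and MCC950 (triangles) mice, with the group mean and SD in black. The groups overlap in every panel, and the saline libraries of *Tlr1* (25.4 to 46.5 CPM) lie mostly above the young ones (8.86 to 30.6 CPM).

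Among the cell-surface receptors, *Tlr1*, which pairs with *Tlr2* for triacylated lipopeptides, changed the most with age. *Tlr1* ranged from 8.86 CPM through a median of 20.8 CPM to 30.6 CPM in young, from 25.4 through 39.8 to 46.5 CPM in saline and from 16.3 through 24.8 to 47.5 CPM in MCC950 libraries. Of the saline libraries, 5 of 7 exceeded the highest young library, whereas MCC950 libraries spread over both ranges, with replicates 6 and 7 at 40.2 and 47.5 CPM and the other 6 at or below 27.1 CPM. *Tlr1* rose 1.89-fold in saline against young mice (log2 fold change 0.92 ± 0.26 SE, edgeR adjusted p = 0.0140). It kept its call in the fits that left out each library in turn (adjusted p from 0.00698 to 0.0454), among them the fit without young replicate 1 (log2 fold change 0.76, adjusted p = 0.0304). With MCC950 its log2 fold change was -0.43 ± 0.24 against saline mice (edgeR adjusted p = 0.222) and 0.49 ± 0.25 against young mice (adjusted p = 0.134).

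*Tlr6*, which pairs with *Tlr2* for diacylated lipopeptides, had the lowest level of the 10 genes and a pattern close to that of *Tlr1*. *Tlr6* ranged from 1.87 through 4.63 to 6.52 CPM in young, from 5.68 through 6.90 to 9.53 CPM in saline and from 2.33 through 4.14 to 8.55 CPM in MCC950 libraries. Of 7 saline libraries 4 lay above all young libraries, and of 8 MCC950 libraries 6 lay below all saline libraries. Its log2 fold change with age was 0.74 ± 0.27 (edgeR adjusted p = 0.0521), just outside the threshold, and DESeq2 placed it inside (0.72 ± 0.28, adjusted p = 0.0375), as did leaving out young replicate 4 (0.92, edgeR adjusted p = 0.0259). With MCC950 against saline mice it was -0.60 ± 0.25 (edgeR adjusted p = 0.0971), and without MCC950 replicate 6, the highest of that group, it became -0.79 (edgeR adjusted p = 0.0195). Because *Tlr1* and *Tlr6* share sequence, their separate values remain uncertain to the extent of the shared stretches.

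*Tlr2*, the common partner of both, ranged from 22.2 through 65.9 to 110.6 CPM in young, from 57.8 through 95.7 to 125 CPM in saline and from 48.8 through 85.9 to 132 CPM in MCC950 libraries. Its values overlapped widely, with young replicate 4 as high as most middle-aged libraries. The log2 fold change was 0.52 ± 0.30 with age (edgeR adjusted p = 0.215), -0.18 ± 0.27 for MCC950 against saline mice (adjusted p = 0.689) and 0.34 ± 0.29 against young mice (adjusted p = 0.369).

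*Tlr4*, the receptor for lipopolysaccharide, was the surface receptor whose mean was highest in young mice. *Tlr4* ranged from 7.07 through 15.02 to 26.5 CPM in young, from 8.29 through 13.2 to 17.7 CPM in saline and from 5.66 through 10.9 to 14.04 CPM in MCC950 libraries. Young replicate 4 was the highest of all 21 libraries and young replicate 1 the lowest of its group. The log2 fold change was -0.21 ± 0.26 with age (edgeR adjusted p = 0.611) and -0.40 ± 0.24 for MCC950 against saline mice (adjusted p = 0.267). Between MCC950 and young mice it was -0.61 ± 0.25 (edgeR adjusted p = 0.0620), and without young replicate 1 it was -0.76 and passed the threshold (edgeR adjusted p = 0.0157). It also passed without MCC950 replicate 6 (-0.68, adjusted p = 0.0455) or replicate 8 (-0.69, adjusted p = 0.0429), and DESeq2 called it (-0.64, adjusted p = 0.0393).

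Of the endosomal receptors, *Tlr3*, the sensor of double-stranded RNA that signals through Ticam1 rather than *Myd88*, varied least. *Tlr3* ranged from 12.6 through 14.1 to 17.9 CPM in young, from 11.9 through 12.9 to 15.4 CPM in saline and from 9.92 through 10.5 to 14.4 CPM in MCC950 libraries. Of 8 MCC950 libraries 6 lay below every young library and 6 below every saline library, with replicates 2 and 6 within the others' range in both cases. *Tlr3* fell by 0.37 ± 0.10 on the log2 scale from young to MCC950 mice (edgeR adjusted p = 0.00470), and its call held when each library was left out (adjusted p from 0.000965 to 0.0126). Against saline mice the log2 fold change was -0.25 ± 0.09 (edgeR adjusted p = 0.0576), and it ranged from -0.31 to -0.23 when single libraries were left out, with a call without saline replicate 1 or 5 or MCC950 replicate 2 or 6 (adjusted p from 0.0146 to 0.0496). Between saline and young mice it was -0.12 ± 0.10 (adjusted p = 0.423).

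*Tlr7* and *Tlr8*, neighbours on the X chromosome that sense single-stranded RNA, and *Tlr9*, which senses unmethylated CpG DNA, passed no threshold in the main fit. Some other settings called them, as given below. *Tlr7* ranged from 7.77 through 24.0 to 43.7 CPM in young, from 19.2 through 28.4 to 35.5 CPM in saline and from 8.90 through 21.3 to 39.8 CPM in MCC950 libraries. *Tlr8* ranged from 2.46 through 6.46 to 11.4 CPM, from 6.84 through 8.69 to 14.6 CPM and from 3.03 through 6.22 to 15.6 CPM in the same order. *Tlr9* ranged from 6.30 through 17.5 to 24.6 CPM, from 14.7 through 20.2 to 28.0 CPM and from 7.48 through 11.9 to 30.0 CPM. In each of the 3 genes the saline libraries spanned a narrower range than the other groups. Young replicates 1 and 3 and MCC950 replicates 1, 3 and 5 fell below all saline libraries in each gene. Young replicate 5 and MCC950 replicate 4 did so too for *Tlr8*, and MCC950 replicates 4 and 8 for *Tlr9*. MCC950 replicate 6 was the highest of its group in each. With age the log2 fold changes were 0.23 ± 0.34 for *Tlr7*, 0.58 ± 0.38 for *Tlr8* and 0.31 ± 0.33 for *Tlr9* (edgeR adjusted p from 0.284 to 0.664). With MCC950 against saline mice they were -0.20 ± 0.31, -0.50 ± 0.34 and -0.47 ± 0.30 (adjusted p from 0.301 to 0.706), and against young mice 0.04 ± 0.33, 0.08 ± 0.37 and -0.16 ± 0.32 (adjusted p from 0.722 to 0.940).

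*Cd14*, which hands lipopolysaccharide to *Tlr4*, was the only 1 of the 10 genes whose mean was higher with MCC950 than with saline. *Cd14* ranged from 38.6 through 134 to 229 CPM in young, from 124 through 225 to 270 CPM in saline and from 169 through 236 to 437 CPM in MCC950 libraries. Of 8 MCC950 libraries 5 exceeded all young libraries, and replicates 4 and 7 (396 and 437 CPM) stood above every library of the other groups, as did replicate 8 at 285 CPM. *Cd14* rose 1.96-fold from young to MCC950 mice (log2 fold change 0.97 ± 0.33, edgeR adjusted p = 0.0234), and without young replicate 1 it rose by 0.77 (adjusted p = 0.0371). The call was lost without young replicate 2 (0.91, edgeR adjusted p = 0.0564) or young replicate 3 (0.83, adjusted p = 0.0655), and in a fit of these 2 groups alone (0.96, adjusted p = 0.0521). Its log2 fold change was 0.60 ± 0.33 with age (edgeR adjusted p = 0.191) and 0.36 ± 0.30 for MCC950 against saline mice (adjusted p = 0.442).

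*Myd88*, the adaptor, ranged from 22.0 through 32.5 to 38.9 CPM in young, from 32.2 through 38.7 to 40.9 CPM in saline and from 29.2 through 37.1 to 45.8 CPM in MCC950 libraries. Both middle-aged groups had nearly the same mean (37.9 ± 3.49 and 37.8 ± 6.55 CPM), above that of the young group (31.4 ± 5.69 CPM), and all 3 groups overlapped. The log2 fold change was 0.27 ± 0.12 with age (edgeR adjusted p = 0.108), 0.00 ± 0.11 for MCC950 against saline mice (adjusted p = 0.993) and 0.27 ± 0.12 against young mice (adjusted p = 0.0761, or 0.0358 without MCC950 replicate 2, where it was 0.32). *Acaa1a*, a peroxisomal thiolase gene whose exons overlap those of *Myd88*, was measured at 27.9 CPM in young, 33.6 CPM in saline and 45.6 CPM in MCC950 mice, and rose with MCC950 against both (log2 fold change 0.44 ± 0.14, edgeR adjusted p = 0.0359 against saline mice, and 0.71 ± 0.15, adjusted p = 0.00102 against young mice). Its part in the counts of *Myd88* was not tested.

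The level of most of the 10 genes followed the level of macrophage and monocyte markers from library to library. The marker list held 15 genes, among them *Csf1r*, *Adgre1* and *C1qa*, none at 0 in any library and none of them a member of the 10. Its sum was higher in saline than in young mice (2824 ± 819 against 1515 ± 695 CPM, exact two-sided permutation test, p = 0.00932, adjusted p = 0.0220 over 33 marker tests), and 4 of its 15 genes rose (*Cd68*, *Lyz2*, *Itgam* and *Aif1*) and none fell. With MCC950 it was 2382 ± 1124 CPM, which did not differ from saline mice by the test (exact two-sided permutation p = 0.402, adjusted p = 0.442). Within groups, the log2 level of the genes correlated with the log2 sum, and Pearson's r was above 0.5 in 29 of 30 relations and had an adjusted permutation p under 0.05 in 20. The values came from the same libraries and share their scaling. How many of all tested genes follow this sum as closely was not tested, so these counts do not set the 10 genes apart from other genes.

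*Tlr2* followed the sum with r = 0.99 in young (n = 6, rho = 0.94, exact permutation p = 0.00556 and 0.0167, adjusted p of r = 0.0141), 0.94 in saline (n = 7, rho = 0.96, exact permutation p = 0.00317 and 0.00278, adjusted p of r = 0.0105) and 0.86 in MCC950 libraries (n = 8, rho = 0.71, exact permutation p = 0.0102 and 0.0576, adjusted p of r = 0.0198). Without the 2 libraries farthest from the median sum, r for *Tlr2* was 0.96, 0.80 and 0.90. *Tlr7* followed it with r = 0.98 in both young and MCC950 libraries (rho = 1.00 and 0.93, exact permutation p of r = 0.00278 and 0.000546, adjusted p = 0.0102 and 0.00982). In saline libraries *Tlr7* did not pass the adjusted threshold (r = 0.77, rho = 0.86, exact permutation p of r = 0.0468, adjusted p = 0.0702). For *Tlr1* r was 0.96, 0.96 and 0.83 in young, saline and MCC950 libraries (exact permutation p of r = 0.0139, 0.00159 and 0.00928, adjusted p = 0.0255, 0.0102 and 0.0191). In young libraries the relation of *Tlr8* weakened from r = 0.80 to 0.39 without the 2 farthest libraries, and that of *Tlr1* from 0.96 to 0.65. *Tlr3* was related least, with r = 0.50, 0.59 and 0.33 (exact permutation p = 0.256, 0.164 and 0.441, adjusted p from 0.200 to 0.461 over 33 relations), and r turned to -0.29 in saline libraries without the 2 farthest. *Myd88* was related in young (r = 0.98, exact permutation p = 0.00556) but not past the threshold in saline (r = 0.59, exact permutation p = 0.181) or MCC950 libraries (r = 0.52, exact permutation p = 0.189), and *Cd14* followed the sum in young (r = 0.98), in saline (r = 0.89) and less tightly in MCC950 libraries (r = 0.62, exact permutation p = 0.102).

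**Figure D3:**
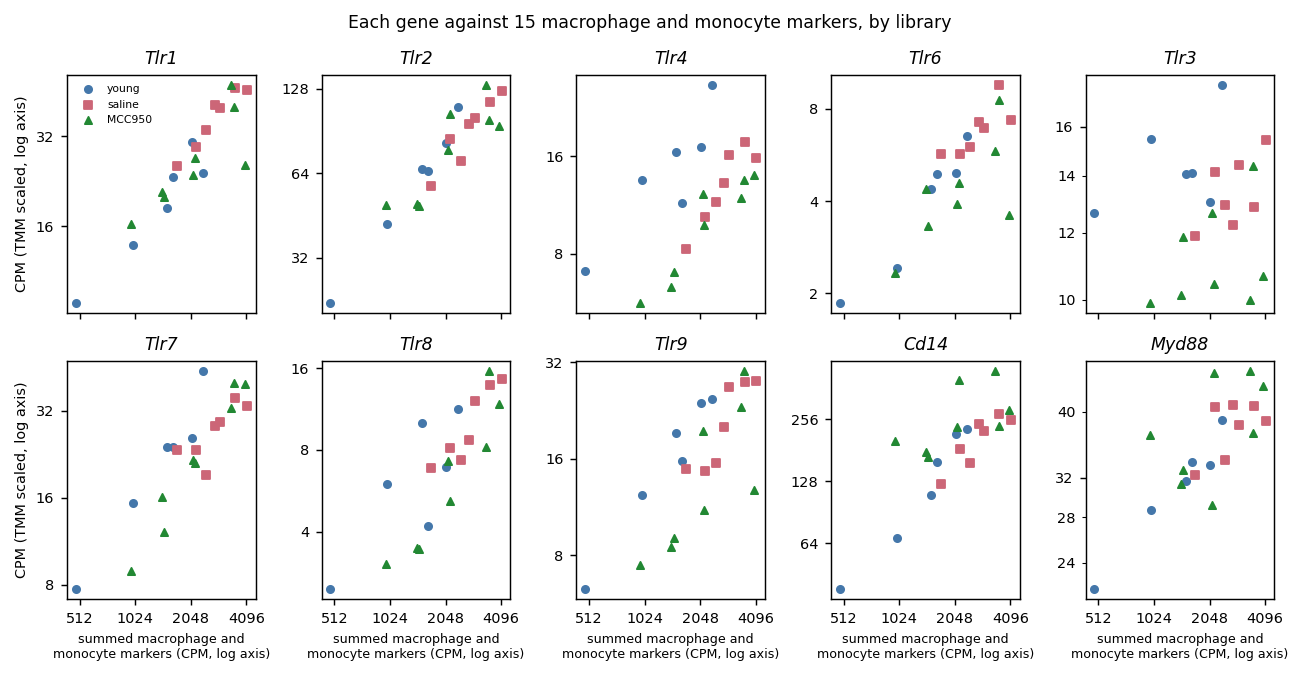
Level of each gene against the summed level of 15 macrophage and monocyte markers, both in CPM on log axes, with 1 point per library (circles young, squares saline, triangles MCC950). *Tlr1* and *Tlr2* lie along 1 band in all groups, *Tlr4* is higher in young than in middle-aged libraries at a like marker level, and *Tlr3* shows little relation.

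When the mean log2 CPM of this marker list entered the fit as a covariate, the 10 genes were called otherwise. With age, *Tlr1* was at 0.27 ± 0.14 (edgeR adjusted p = 0.183) and no longer called, while *Tlr4* was lower by -0.89 ± 0.12 (adjusted p = 0.000108), *Tlr7* by -0.61 ± 0.11 (adjusted p = 0.000877) and *Tlr9* by -0.52 ± 0.18 (adjusted p = 0.0494). With MCC950 against saline mice, *Cd14* was higher by 0.73 ± 0.20 (edgeR adjusted p = 0.0205), and no other gene of the 10 was called. Against young mice, *Cd14* remained higher with MCC950 (0.69 ± 0.21, edgeR adjusted p = 0.00950) and *Tlr3* lower (-0.44 ± 0.09, adjusted p = 0.000680), and *Tlr4* (-1.02 ± 0.11), *Tlr7* (-0.55 ± 0.10), *Tlr8* (-0.61 ± 0.17) and *Tlr9* (-0.67 ± 0.16) were called lower as well. These values describe the level of each gene at a like marker level and rest on a score measured in the same libraries. The share of all genes called with a marker score as covariate was not computed, so these calls have no background beside them. With the proximal tubule marker score as the covariate, *Cd14* was higher with MCC950 than with saline by 1.33 ± 0.27 (edgeR adjusted p = 0.00824), *Tlr2* by 0.74 ± 0.21 (adjusted p = 0.0434) and *Myd88* by 0.34 ± 0.10 (adjusted p = 0.0496). With that score *Cd14*, *Tlr1*, *Tlr2*, *Tlr7* and *Myd88* were called higher with MCC950 than in young mice (0.54 to 1.82), and *Tlr3* was not called (-0.28 ± 0.11, edgeR adjusted p = 0.0537). With the podocyte marker score as the covariate, *Tlr1* was not called with age (1.27 ± 0.56, edgeR adjusted p = 0.272). Between MCC950 and young mice, *Tlr3* (-0.04 ± 0.14, adjusted p = 0.917) and *Cd14* (1.42 ± 0.58, adjusted p = 0.260) were not called. For MCC950 against saline mice, that score called *Tlr3* and *Tlr4* lower (edgeR adjusted p = 0.0339 for *Tlr4*). The summed podocyte markers of every young library lay above those of every middle-aged library.

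**Figure D4:**
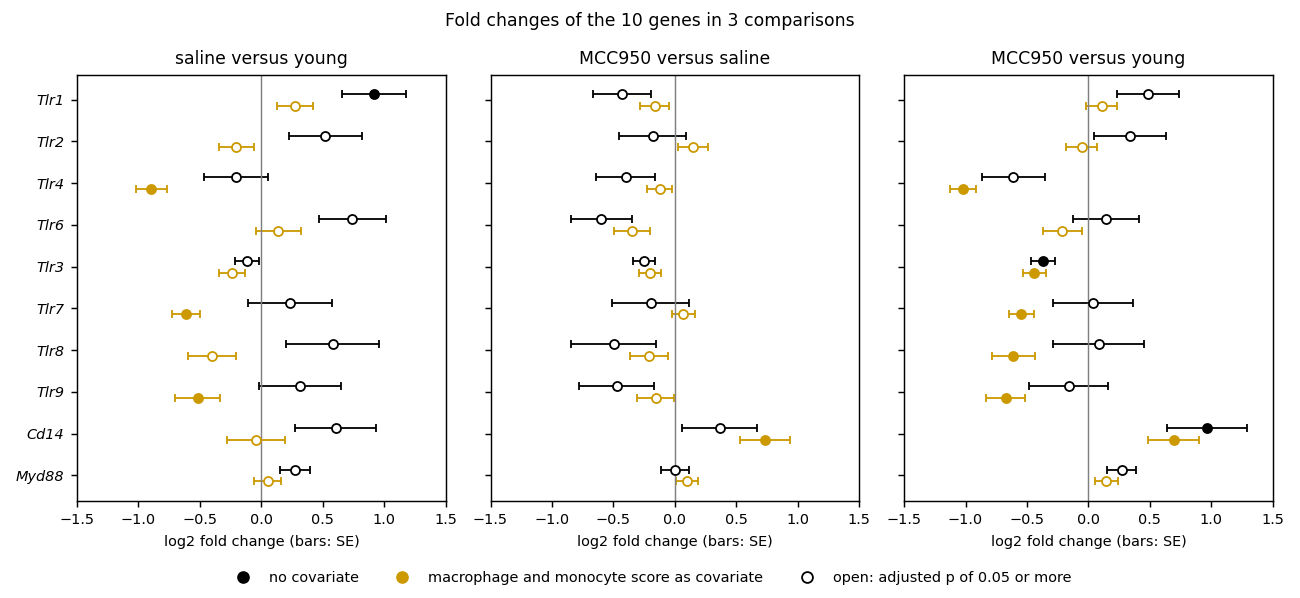
Log2 fold change and SE of each gene in 3 comparisons, from the fit without a covariate (black) and with the macrophage and monocyte marker score as a covariate (yellow), with filled points where the adjusted p is under 0.05. Without the covariate *Tlr1* is called with age and *Tlr3* and *Cd14* between MCC950 and young mice, and with it *Tlr4* moves to -0.89 with age and *Cd14* to 0.73 for MCC950 against saline mice.

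Markers of other cells moved with the groups too, and their part in the levels of the 10 genes was not tested. The summed markers of dendritic cells were 44.6 to 103 CPM in young, 87.2 to 167 CPM in saline and 59.3 to 133 CPM in MCC950 libraries, and with age 4 of 8 rose and 1 fell (exact two-sided permutation test of the sum, saline versus young, adjusted p = 0.0361). Those of B and plasma cells were 39.4 to 180 CPM, 400 to 581 CPM and 112.1 to 652 CPM (adjusted p = 0.00481, 3 of 7 rose with age). Those of neutrophils were 9.16 to 17.5 CPM, 23.3 to 31.8 CPM and 12.8 to 33.6 CPM (adjusted p = 0.00481, 2 of 7 rose), where *Ly6g*, a defining marker, was at 0 in 5 of 6, 6 of 7 and 8 of 8 libraries. Those of T cells were 7.19 to 17.6 CPM, 16.9 to 26.9 CPM and 8.90 to 74.7 CPM (adjusted p = 0.00799, 3 of 7 rose). In MCC950 libraries *Cd4* reached 3091 counts, while *Cd3e*, *Cd3d* and *Cd3g* reached at most 47, 35 and 29. The T cell sum there rests little on these CD3 genes. Summed markers of endothelium, of mesangium and smooth muscle, and of collecting duct were lower with age. The summed markers of endothelium were 440 to 779 CPM in young, 242 to 367 CPM in saline and 201 to 402 CPM in MCC950 libraries, and 7 of 8 fell (exact two-sided permutation test, saline versus young, adjusted p = 0.00481). Those of mesangium and smooth muscle were 167 to 243 CPM, 61.3 to 113.2 CPM and 63.1 to 123 CPM (adjusted p = 0.00481, 6 of 7 fell), and those of collecting duct were 646 to 1414 CPM, 421 to 739 CPM and 282 to 701 CPM (adjusted p = 0.00962, 4 of 6 fell). Those of the loop of Henle and distal tubule were 3199 to 4512 CPM, 3237 to 4764 CPM and 2409 to 4413 CPM. Their sum passed no threshold with age (adjusted p = 0.280, 2 of 7 fell). With MCC950 against saline mice it was just outside (exact two-sided permutation test, adjusted p = 0.0549, 2 of 7 fell). Those of proximal tubule were 1394 to 4369 CPM, 1235 to 2990 CPM and 1995 to 4757 CPM. The proximal tubule sum passed no threshold with age (exact two-sided permutation test, adjusted p = 0.496, 0 of 10 rose or fell). With MCC950 against saline mice 7 of 10 rose (exact two-sided permutation test of the sum, adjusted p = 0.00799).

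Of the 4 other mouse Toll-like receptors, *Tlr12*, a receptor for profilin, had its own pattern. *Tlr12* ranged from 9.95 through 12.4 to 13.1 CPM in young, from 10.3 through 13.2 to 20.002 CPM in saline and from 18.3 through 21.8 to 24.9 CPM in MCC950 libraries. All MCC950 libraries lay above all young libraries and 6 of 8 above all saline libraries. *Tlr12* rose 1.52-fold with MCC950 against saline mice (log2 fold change 0.61 ± 0.12, edgeR adjusted p = 0.00302) and 1.78-fold against young mice (0.83 ± 0.12, adjusted p = 4.3e-05), and with age it was at 0.23 ± 0.13 (adjusted p = 0.203). Within groups it did not follow the macrophage sum past the threshold (r = -0.38, 0.61 and 0.20 in young, saline and MCC950 libraries, exact permutation p = 0.447, 0.144 and 0.621). *Tlr13*, the sensor of bacterial ribosomal RNA, had log2 fold changes of 0.78 ± 0.31 with age (edgeR adjusted p = 0.0677) and -0.48 ± 0.28 with MCC950 against saline mice (adjusted p = 0.254). *Tlr11* was at 1.14 to 5.54 CPM over all libraries and passed no threshold (edgeR adjusted p from 0.207 to 0.699). *Tlr5*, the flagellin receptor, lay between 0.23 and 1.90 CPM in 20 libraries and at 6.05 CPM in MCC950 replicate 8. Its saline libraries were all above its young libraries, with a log2 fold change of 1.17 ± 0.57 (edgeR adjusted p = 0.140).

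Of 82 tested genes in the lists of further pathway members, 16 rose and 3 fell with age, 7 rose and 3 fell with MCC950 against saline mice, and 24 rose and 5 fell between MCC950 and young mice (edgeR, threshold as above). Over all genes 12.2% rose and 12.4% fell with age, 11.9% rose and 4.86% fell with MCC950 against saline mice, and 21.8% rose and 16.5% fell against young mice, and the counts of each list below are to be read against these shares. The share of pathway genes that rose was above that of all genes in both comparisons with young mice and below it for MCC950 against saline mice, and the share that fell was below it in each. The median log2 fold change was 0.37, -0.03 and 0.28 in the 3 comparisons, beside 0.02, 0.00 and 0.08 for all genes. Among 12 co-receptors and trafficking factors, 3 rose and none fell with age. They were *Ctsb* (0.90 ± 0.18) and *Lgmn* (0.69 ± 0.12), lysosomal proteases of the kind that trim endosomal receptors, and *Cnpy3* (0.39 ± 0.09), a chaperone of Toll-like receptors. With MCC950 against saline mice *Ctsl* (0.44 ± 0.11) and *Hsp90b1* (0.39 ± 0.12), the chaperone gp96, rose and *Lbp*, the lipopolysaccharide binding protein, fell by 1.49 ± 0.32 on the log2 scale from 0.70 to 0.25 CPM. Between MCC950 and young mice 4 rose, led by *Lgmn* (0.94 ± 0.11), *Ctsb* (0.88 ± 0.18) and *Hsp90b1* (0.33 ± 0.13), and *Lbp* fell by 1.21 ± 0.35.

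Of the 5 other adaptors, *Ticam2*, which carries *Tlr4* signals from the endosome, rose with age (0.83 ± 0.29, edgeR adjusted p = 0.0383), and it was the 1 adaptor of this list called in any comparison. Of 29 kinases, ligases and transcription factors, 5 rose and 1 fell with age, led by the kinase *Ikbke* (1.95 ± 0.38, from 1.70 to 6.53 CPM), *Irf5* (0.75 ± 0.25), a transcription factor downstream of *Myd88*, and the NF-κB subunit *Relb* (0.69 ± 0.17), while the ubiquitin ligase gene *Peli2* fell by 0.46 ± 0.16. With MCC950 against saline mice the IκB kinase *Chuk* (0.31 ± 0.10) and *Ube2v1* (0.20 ± 0.04) rose, and *Tab3* and *Ikbkg* fell by 0.22 ± 0.07 and 0.19 ± 0.06. Between MCC950 and young mice 8 rose, led by *Ikbke* (1.66 ± 0.37), *Relb* (0.58 ± 0.16) and *Nfkb2* (0.46 ± 0.15), and *Peli2* and *Tab3* fell by 0.52 ± 0.16 and 0.36 ± 0.07.

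Of 14 inhibitors, 5 rose and 2 fell with age. The largest rises were those of *Tnip3* (1.15 ± 0.28) and *Irak3* (0.90 ± 0.23), which encodes the inactive kinase IRAK-M, and *Il1rl1* (0.87 ± 0.28), and *Otud7b* and *Tollip* fell by 0.47 ± 0.09 and 0.18 ± 0.05. *Sigirr* rose with MCC950 against saline mice (0.58 ± 0.16). Between MCC950 and young mice 4 rose, led by *Tnip3* (1.01 ± 0.27), *Nfkbie* (0.83 ± 0.22) and *Tnip1* (0.48 ± 0.10), and *Otud7b* and *Tollip* fell by 0.26 ± 0.09 and 0.14 ± 0.05. Of 20 target genes, 18 were tested, and *Ifnb1* and *Saa3* did not pass the filter. With age *Il10* (1.97 ± 0.48, from 0.60 to 2.33 CPM) and the costimulator *Cd80* (1.11 ± 0.34) rose. Only *Cxcl1* of this list rose with MCC950 against saline mice (0.73 ± 0.21). Between MCC950 and young mice 7 rose and none fell, led by *Il10* (1.98 ± 0.47), *Cd80* (1.40 ± 0.34) and *Cxcl1* (0.97 ± 0.23).

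The genes whose log2 CPM was most like that of each of the 10 over the 21 libraries were sought among 13474 genes. *Tlr1* was followed most closely by *Nckap1l*, *Lat2* and *Dennd4b* (Pearson's r from 0.977 to 0.980), *Tlr2* by *C3ar1*, *Ppp1r18* and *Arhgef6* (0.966 to 0.969) and *Tlr6* by *Cyp4v3*, *Cd300c2* and *Tifab* (0.953 to 0.959). *Tlr4* was nearest to *Frmd4a*, *Slc23a2* and *Itpripl2* (0.929 to 0.940). *Tlr7* was nearest to *Kcnk6*, *Tor3a* and *Themis2*, *Tlr8* to *Lgals3bp*, *Ms4a6c* and *Rab8b*, and *Tlr9* to *Ciita*, *Atp2b1* and *Cep170* (0.949 to 0.966). *Tlr3* had the loosest company, with *Enpp4*, *Gm7072* and *Zfp758* (0.873 to 0.880). *Cd14* was nearest to *Nlrp3*, *Cd83* and *Il1b* (0.978, 0.977 and 0.976, and 0.966, 0.964 and 0.968 after group means were taken off), and *Myd88* to *Rela*, *Casp4* and *Lfng* (0.935 to 0.941). These correlations are descriptions over libraries that share depth and cell content, and nothing is read from them about shared control.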

How the data were processed

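The 21 podocyte fractions were each measured as 1 library by bulk mRNA-seq. P-values measure the spread between libraries. The authors trimmed reads with Trim Galore, aligned them to the mouse genome (mm10, GRCm38) with Bowtie2 and assigned them to genes with featureCounts, and the deposited values were raw counts per Entrez Gene number. The annotation, the strand setting and the treatment of multiply aligned reads are not given in the sources used here, and Bowtie2 does not align across splice junctions unless it is given transcripts, which could lower counts at exon ends. A deposited normalized table was not used.

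Groups followed the labels. The counts were filtered (filterByExpr) and fitted for all 3 groups together in edgeR 4.0.16 (R 4.3.3, limma 3.58.1) with TMM scaling and the quasi-likelihood test, and p-values were adjusted after Benjamini and Hochberg over 16377 genes, with a threshold of 0.05. DESeq2 1.42.0, the tool of the study, was an alternative. SEs of edgeR fits were derived as the absolute log2 fold change over the square root of the F statistic. Those of DESeq2 are its own, so the SEs of both tools are not the same measure. CPM were scaled by TMM. Marker sums, depth and correlations were tested by exact permutation in scipy 1.17.1 (Python 3.11.15, numpy 2.4.6, pandas 2.3.3), and correlations were adjusted over 33 relations. Depth, in total counts, limits mainly the young libraries, and SEs carry it. No pair of libraries of 1 group agreed within sampling noise (lowest chi-square per degree of freedom 16.7 over 64 pairs). The fit was tested on simulated data.

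Named were all 10 genes, the 4 other Toll-like receptors, up to 3 higher and 3 lower genes with the largest change per pathway list and comparison among those called, the 3 genes most alike to each of the 10 by Pearson's r over 21 libraries, and markers. *Acaa1a* and *Gm45542* were named for their overlap, and *Csf1r*, *Adgre1* and *C1qa* as examples. The genes and lists were chosen with earlier results of these data known. Alternatives were other scaling, filtering, tools and sample sets, a replicate block, thinning to 5804891 counts outside mitochondrial genes, marker scores as covariates, and leaving out each library.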

Additional observations from a re-analysis of the deposited data

Results flagged for a closer look

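In saline mice, *Tlr6* of replicate 2 stood at 9.53 CPM, apart from the next library at 7.33 CPM and from the other saline libraries down to 5.68 CPM. It was the 1 of 30 groups of libraries (10 genes in 3 groups) in which the highest or lowest value stood this far from the rest, and chance flags about 1 in 20 such groups. Without that library the log2 fold change of *Tlr6* with age was 0.64 (edgeR adjusted p = 0.118) instead of 0.74 (adjusted p = 0.0521).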

How the results depend on the processing

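Counts of the 10 genes called changed with the setting. With age (1 higher, 0 lower), DESeq2, a fit of the 2 groups alone, thinning and the proximal tubule score gave 2 higher (*Tlr6* was added), the 2-fold rule and the podocyte score 0 higher, and the macrophage score 0 higher and 3 lower. For MCC950 against saline mice (0 and 0), DESeq2, its size factors and the fit of 2 groups gave 1 lower (*Tlr3*). The podocyte score gave 2 lower (*Tlr3* and *Tlr4*), the macrophage score 1 higher and the tubule score 3 higher. For MCC950 against young mice (1 and 1), DESeq2 gave 2 lower, the 2-fold rule and the podocyte score 0 and 0, the fit of 2 groups 0 higher, the macrophage score 5 lower, and the tubule score 5 higher and 0 lower. Leaving out mitochondrial genes or the filter on low counts moved no count, and the causes of these moves were not tested. Shares of all genes called were computed only for the main fit and the 2-fold rule. Counts from other settings, those with the replicate block or a library left out among them, thus have no background beside them. When each library was left out, the counts with age were 1 to 2 higher and 0 to 0 lower, those for MCC950 against saline mice 0 to 0 higher and 0 to 2 lower, and those against young mice 0 to 2 higher and 1 to 2 lower.

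The sign of single log2 fold changes turned as follows. *Myd88* for MCC950 against saline mice was 0.0031 without the filter, 0.015 after thinning and -0.047 to 0.044 without single libraries. With the macrophage score, with age, *Tlr2* was -0.20, *Tlr7* -0.61, *Tlr8* -0.40, *Tlr9* -0.52 and *Cd14* -0.043. For MCC950 against saline mice, *Tlr2* was 0.15, *Tlr7* 0.068 and *Myd88* 0.10, and against young mice *Tlr2* was -0.055, *Tlr6* -0.21, *Tlr7* -0.55 and *Tlr8* -0.61. With the podocyte score *Tlr4* was 1.05 and *Tlr3* 0.33 with age, and *Tlr4* 0.34 and *Tlr9* 0.74 for MCC950 against young mice. With the tubule score, for MCC950 against saline mice, *Tlr1* was 0.26, *Tlr2* 0.74, *Tlr4* 0.37, *Tlr7* 0.65, *Tlr8* 0.44, *Tlr9* 0.40 and *Myd88* 0.34, and against young mice *Tlr4* was 0.046 and *Tlr9* 0.57. Without single libraries *Tlr4* with age ranged from -0.36 to 0.015, and against young mice with MCC950 *Tlr6* ranged from -0.048 to 0.30, *Tlr7* from -0.15 to 0.31 and *Tlr8* from -0.18 to 0.28.

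Replicate numbers were not used as pairs in the main fit. Correlations of same-numbered libraries ran from -0.0614 to 0.347 (6 pairs, saline and young), -0.144 to 0.335 (7 pairs, MCC950 and saline) and -0.0128 to 0.401 (6 pairs, MCC950 and young). Libraries of different numbers were not correlated, so these values cannot decide whether the numbers mark pairs. With the replicate block, 3 genes were higher with age (*Tlr1*, *Tlr6* and *Tlr8*), 0 were called for MCC950 against saline mice, and 1 was higher and 2 were lower against young mice, where *Tlr7* was -0.27 and *Tlr8* -0.26. SEs from 0.09 to 0.38 limit what the depth and number of mice can show.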
